A study of Mus musculus with 6 samples.

Results

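Endocrine cells of gut, pancreas and lung store peptide hormones in granules, and 8 genes of this programme were followed in embryonic mouse lung buds: Rfx6, Chga, Chgb, Cckar, Insm1, Neurod1, Neurog3 and Calca. They were chosen by name from gut and lung endocrine biology, and with the difference between the 2 groups of arrays already known. Their values in that comparison are therefore given as a description without p-values, and no conclusion rests on a test of them. Of the 8 genes, 7 had a microarray probe naming 1 gene, out of 19938 genes measured in this way. No probe is named for Calca in the annotation used here, and it was not analysed here.

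Hdac1 and Hdac2 encode histone deacetylases that act in repressor complexes, and the study asked which genes they control during lung development. The DKO group held 3 arrays of lung buds whose genotype was Shhcre with homozygous floxed (fl/fl) Hdac1 and Hdac2 alleles. The control group held 3 arrays of Shhcre lung buds, and both groups shared the Cre allele, the embryonic age (E11.5, counted in days) and a mixed C57BL/6, 129X1 and 129S1 background. Shhcre drives Cre recombinase from the Sonic hedgehog locus, a locus used by the epithelium of the bud and not by the mesenchyme around it. The labels call the 3 arrays of a group biological replicates but do not give the number of embryos in each, so the errors measure the spread between these samples. Whole buds were measured, and fewer cells of a type and less RNA per cell cannot be told apart in them.

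In gut and pancreas, the transcription factor Neurog3 starts the endocrine programme, and Insm1, Neurod1 and Rfx6 act after it as endocrine cells mature. Pulmonary neuroendocrine cells, the endocrine cells of the airway, also use Insm1 and appear later than the first buds. Chga and Chgb encode granins, acidic proteins that help to pack hormones into dense-core granules. Calca encodes calcitonin and the peptide CGRP, a marker of lung neuroendocrine cells, and Cckar encodes a receptor for the gut hormone cholecystokinin.

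Of the 7 measured genes, Rfx6 and Chga were higher in every DKO array than in any control array, and Cckar was lower in every DKO array. Values of Neurog3, Insm1, Neurod1 and Chgb overlapped between the groups. The 3 genes without overlap are set beside 18.8% of all genes for which the 3 DKO and 3 control values did not overlap. The same 3 genes were past the threshold of limma, a linear model fitted across all genes (adjusted p under 0.05), as were 2.41% of all genes, 1.03% higher and 1.38% lower in DKO. Nothing is read from these counts, because the genes were listed with this comparison in view. The median difference over the 7 genes was 0.01 on the log2 scale, and that over all genes was 0.00.

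**Figure D1:**
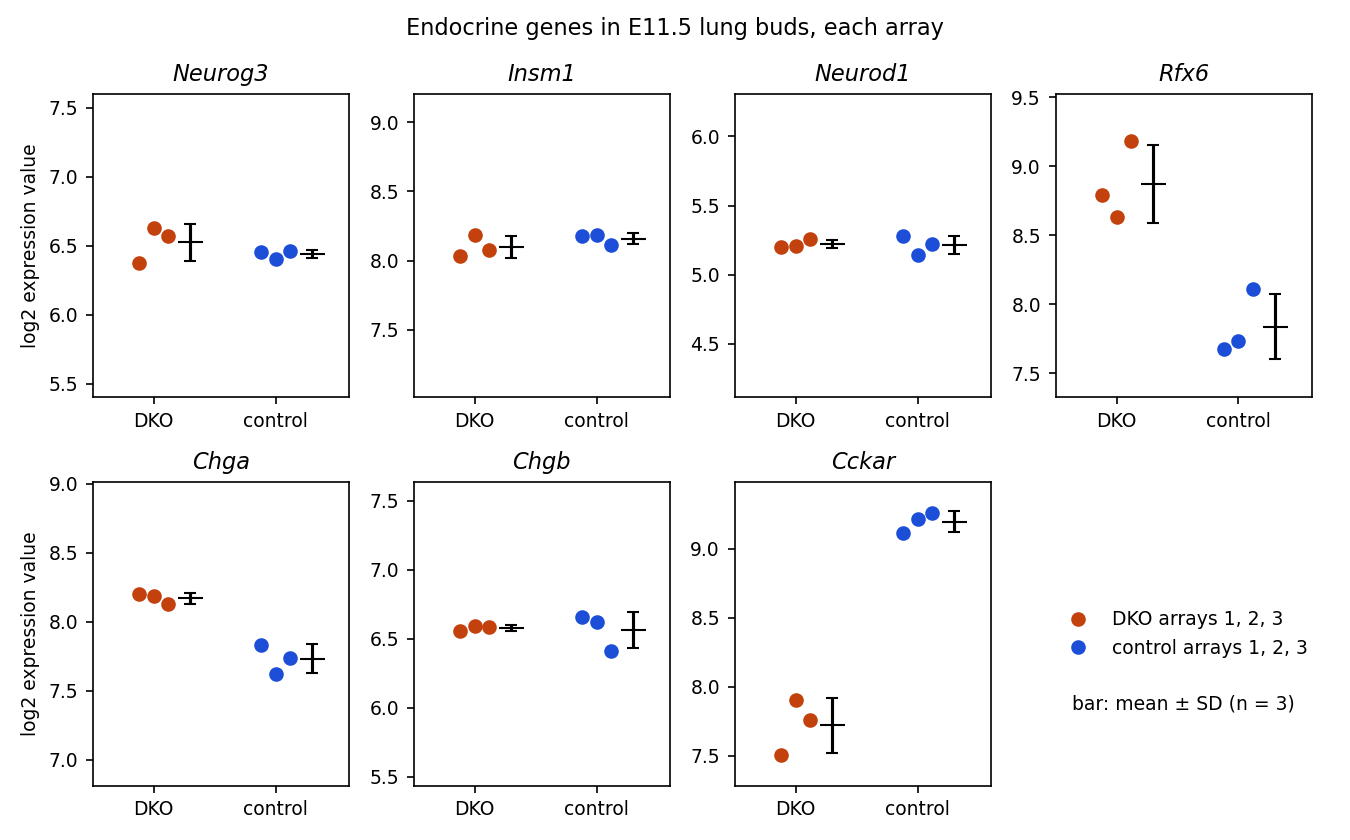
Log2 expression value (vertical axes, each spanning the same number of log2 units) of the 7 measured endocrine genes in the 3 DKO and 3 control arrays, with the mean and SD of each group beside the points. The DKO points of Rfx6 and Chga lie above all control points and those of Cckar lie below them, while the groups of the other genes overlap.

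Rfx6 encodes a winged-helix transcription factor that mouse pancreas needs to form most of its islet cells. Its log2 value was 8.79, 8.63 and 9.18 in DKO arrays 1 to 3, and 7.67, 7.73 and 8.11 in control arrays 1 to 3. All DKO values lay above all control values, with array 3 the highest of each group. The mean was 8.87 ± 0.28 in DKO and 7.84 ± 0.24 in control (SD, n = 3 each), a difference of 1.03 (standard error, SE, 0.15, 95% interval 0.69 to 1.37) or 2.04-fold. Rfx6 had the widest spread of the 7 genes in both groups, against a median SD over all genes of 0.08 in DKO and 0.06 in control. Leaving out 1 array at a time gave differences of 0.87 to 1.17, and 7 of the 19938 genes, Rfx6 included, had a positive difference at least as large.

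The other transcription factors of the programme showed no such difference. Insm1, a zinc-finger repressor needed by endocrine cells of gut, pancreas and lung, had log2 values of 8.03, 8.18 and 8.08 in DKO and 8.18, 8.18 and 8.11 in control. DKO arrays 1 and 3 lay below every control array and DKO array 2 level with the highest, and the difference was -0.06 (SE 0.06, interval -0.19 to 0.07). Neurog3, the first factor of the gut endocrine lineage, had log2 values of 6.37, 6.63 and 6.57 in DKO and 6.45, 6.41 and 6.46 in control. Here 2 DKO arrays lay above all controls and 1 below them, with a difference of 0.09 (SE 0.07, interval -0.07 to 0.25). Neurod1, a helix-loop-helix factor acting after Neurog3, had log2 values of 5.20, 5.21 and 5.26 in DKO and 5.28, 5.14 and 5.22 in control. Its DKO values lay within the range of the controls, with a difference of 0.01 (SE 0.05, interval -0.12 to 0.13). The interval of Insm1 holds no difference as large as that of Chga or Rfx6. Those of Neurog3 and Neurod1 hold none either, but both probes were dim, so their intervals do not bound a change of RNA.

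How bright a probe is bears on what these arrays could show for a gene. Probes of 1190 olfactory and vomeronasal receptor genes, which lung buds are taken not to use, served as a measure of brightness without signal. Their 95th percentile lay between 6.86 and 7.14 on the 6 arrays, and their medians between 5.12 and 5.26. Neurog3, Neurod1 and Chgb were below this percentile on all 6 arrays, whereas Rfx6, Chga, Cckar and Insm1 were above it on all 6. A probe below this percentile was not set apart from the brighter receptor probes, so expression was neither shown nor excluded, and a change could be hidden. Between groups, 95% of the receptor genes differed by -0.13 to 0.16, and limma called 0 of the 1190.

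Of the 2 granins, Chga was above the receptor-probe percentile on all 6 arrays and Chgb on none. Chga had log2 values of 8.20, 8.18 and 8.13 in DKO and 7.83, 7.62 and 7.74 in control, with no overlap. Its mean was 8.17 ± 0.04 in DKO and 7.73 ± 0.10 in control (SD, n = 3 each), a difference of 0.44 (SE 0.06, interval 0.30 to 0.58) or 1.35-fold. The DKO arrays were the closer to each other, and 106 genes, Chga included, had a positive difference at least as large. Chgb had log2 values of 6.55, 6.59 and 6.59 in DKO and 6.66, 6.62 and 6.41 in control. All DKO values lay inside the control range, and the difference was 0.01 (SE 0.07, interval -0.14 to 0.17). Leaving out 1 array at a time gave 0.38 to 0.49 for Chga and -0.06 to 0.06 for Chgb.

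The promoter windows of Chga, Chgb and Rfx6 are shown because Chga and Rfx6 were the 2 genes higher in every DKO array, and Chgb is the sister granin of Chga. Each is 300 bases of RefSeq sequence on build GRCm38.p6, 250 before to 50 after an annotated start, on the gene's strand. Capitals mark matches on either strand to an E-box, CAGNTG, which factors such as Neurod1 bind, to the cAMP response element, TGACGTCA, or to a piece of the site of the repressor REST, CAGCACC or GGACAG.
Chga (chr12:102554691-102554990, plus strand): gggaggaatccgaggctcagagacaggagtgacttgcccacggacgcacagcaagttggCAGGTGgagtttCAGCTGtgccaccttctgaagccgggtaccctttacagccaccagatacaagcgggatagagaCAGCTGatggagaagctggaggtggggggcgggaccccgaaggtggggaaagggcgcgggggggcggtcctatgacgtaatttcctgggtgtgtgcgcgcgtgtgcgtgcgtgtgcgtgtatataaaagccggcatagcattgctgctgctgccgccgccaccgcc
Chgb (chr2:132781392-132781691, plus strand): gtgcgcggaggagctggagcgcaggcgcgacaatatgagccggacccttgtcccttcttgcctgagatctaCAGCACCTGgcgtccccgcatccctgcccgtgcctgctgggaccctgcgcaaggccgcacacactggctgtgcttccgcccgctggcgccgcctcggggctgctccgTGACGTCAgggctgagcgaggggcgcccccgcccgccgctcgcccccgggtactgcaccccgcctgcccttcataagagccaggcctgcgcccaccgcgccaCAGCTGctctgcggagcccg
Rfx6 (chr10:51685268-51685567, plus strand): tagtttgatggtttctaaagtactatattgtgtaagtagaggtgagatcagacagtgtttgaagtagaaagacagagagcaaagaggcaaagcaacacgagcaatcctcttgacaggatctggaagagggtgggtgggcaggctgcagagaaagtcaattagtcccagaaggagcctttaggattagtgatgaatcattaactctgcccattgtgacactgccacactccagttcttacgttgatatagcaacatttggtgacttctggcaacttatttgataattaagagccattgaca

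RefSeq windows matched 6 of the 8 genes by symbol: Rfx6, Chga, Chgb, Neurog3, Neurod1 and Calca. Chga held 3 E-boxes, at positions -191, -179 and -116 from the annotated start, and no exact match to the other motifs. Only exact letters were searched, so the TGACGTAA of the Chga window, 1 letter off the cAMP response element, was not counted. Chgb held 2 E-boxes, 1 cAMP response element at position -72, and 1 CAGCACC at position -179. The CAGCACC of Chgb overlaps one of its E-boxes. Neurog3 and Calca held 1 E-box each, while the windows of Rfx6 and Neurod1 held no match to any of the 4 motifs. Over all 32851 windows of the table, 51.4% held an E-box, 1.79% the cAMP response element, 7.14% CAGCACC and 22.2% GGACAG. The Rfx6 window stood apart in base composition, with 42.3% G or C and 2 CG pairs, against 62.0% and 21 for Chga and 72.7% and 31 for Chgb. The medians over all windows were 52.7% and 7. A match here is a description of letters, and binding was not measured.

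Cckar showed the widest separation of the 7 genes. It encodes the G protein-coupled receptor through which cholecystokinin acts on pancreas and gall bladder. Its log2 value was 7.51, 7.90 and 7.76 in DKO arrays 1 to 3, and 9.11, 9.22 and 9.26 in control arrays 1 to 3. Every DKO array was more than 1 log2 unit below every control array. The mean was 7.72 ± 0.20 in DKO and 9.20 ± 0.08 in control (SD, n = 3 each), a difference of -1.47 (SE 0.09, interval -1.69 to -1.26), or 2.78-fold lower in DKO. Of the 19938 genes, 4, Cckar included, had a negative difference at least as large, and leaving out 1 array at a time gave -1.56 to -1.37. Its ligand genes Cck (0.03, SE 0.07, limma adjusted p = 0.930) and Gast (-0.03, SE 0.06, adjusted p = 0.928) and the second receptor Cckbr (-0.02, SE 0.07, adjusted p = 0.953) did not pass, and were named after their values were seen. Cck and Cckbr were below the receptor-probe percentile on all 6 arrays.

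Markers of the lung epithelium were lower in the same DKO arrays. Of 20 such markers, 12 fell and 0 rose, with a median difference of -0.39, and 18 of the 20 had values without overlap. The genes that fell most were Sox2, a factor of the proximal airway (-1.17, SE 0.09, adjusted p = 0.000545), the trafficking gene Rab25 (-0.89, SE 0.06, adjusted p = 0.000293) and the keratin Krt18 (-0.86, SE 0.05, adjusted p = 0.000135). Next came the pioneer factor Foxa1 (-0.69, SE 0.07, adjusted p = 0.00184), Grhl2 (-0.61, SE 0.07, adjusted p = 0.00211) and Shh (-0.59, SE 0.08, adjusted p = 0.00813). The markers did not fall alike. Nkx2-1 (-0.19, SE 0.07, adjusted p = 0.299), Cdh1 (-0.22, SE 0.07, adjusted p = 0.168) and Krt19 (0.08, SE 0.05, adjusted p = 0.628) did not pass, and were named after their values were seen. The summed linear level of the 20 markers was 12951 to 14534 in DKO arrays and 18456 to 19499 in control arrays, and all 20 were above the receptor-probe percentile on every array. The count of 12 became 7 without control array 2, which also ended the call of Shh (adjusted p = 0.0532).

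Each endocrine gene was therefore also set against the mean log2 value of these 20 markers on the same array. That mean was 9.08 ± 0.07 in DKO and 9.52 ± 0.04 in control (SD, n = 3 each), a difference of -0.44. Relative to it, Cckar stood at -1.36 ± 0.14 in DKO and -0.32 ± 0.07 in control, a difference of -1.03, so it was lower by more than the marker mean. Rfx6 stood at -0.21 ± 0.27 in DKO and -1.68 ± 0.25 in control, a difference of 1.47. Chga stood at -0.91 ± 0.10 in DKO and -1.79 ± 0.15 in control, a difference of 0.88. For Neurog3, Insm1, Neurod1 and Chgb the relative differences were 0.53, 0.38, 0.45 and 0.45, close to the fall of the marker mean itself. This follows from the subtraction, because their own differences were only -0.06 to 0.09. It shows no rise of these genes, and Neurog3, Neurod1 and Chgb were below the receptor-probe percentile. Which cells of the bud express each gene was not measured, and the part of the epithelial markers in these differences was not tested.

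**Figure D2:**
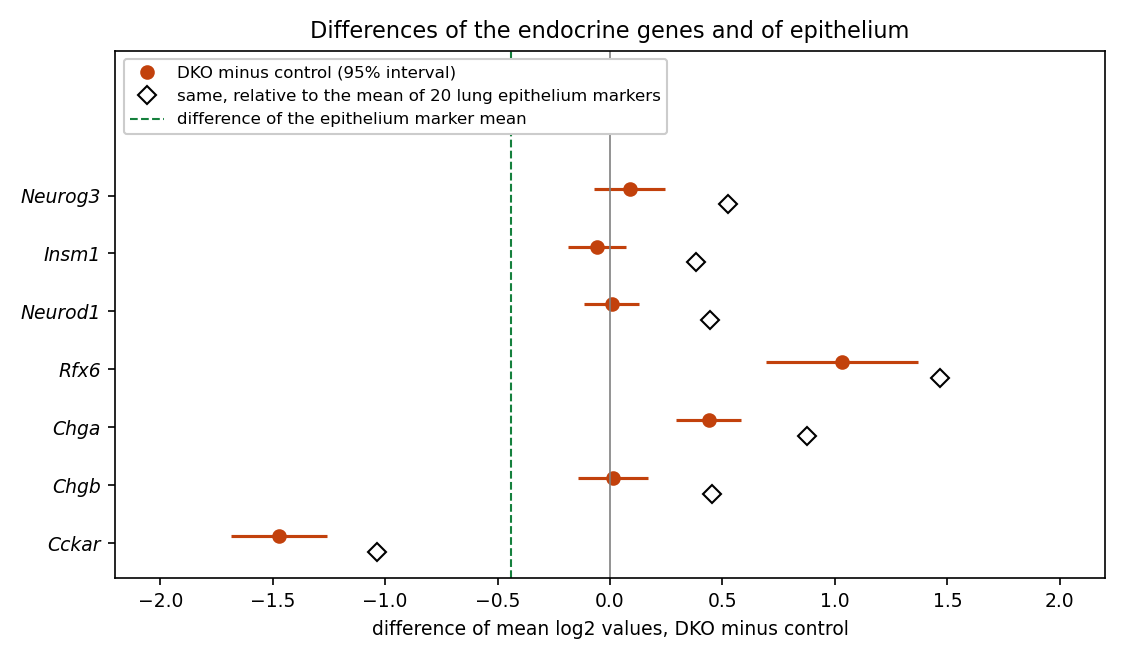
Difference of mean log2 values, DKO minus control (horizontal axis), for the 7 measured endocrine genes. Circles with lines are the differences with 95% intervals, diamonds are the differences relative to the mean of 20 lung epithelium markers on the same array, and the dashed line is the difference of that mean. Cckar lies left of the dashed line, at -1.47, and Rfx6 farthest right, at 1.03.

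Most other genes of the endocrine programme did not pass the test. Across 4 lists holding 118 genes, 108 genes outside the 8 were measured, and 2 rose and 3 fell, which is 4.63% against 2.41% of all genes. Of these 108, 49 were higher and 59 lower in DKO, with a median difference of -0.01, and 71 were above the receptor-probe percentile on all arrays. The count of 5 became 2 without DKO array 3, control array 1 or control array 2, 3 without DKO array 1 or control array 3, and 11 without DKO array 2. It was 19 with array weights.

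Of 24 further endocrine transcription factors, none passed limma's threshold (0 calls), while 2 had an unadjusted p under 0.05. The largest differences were those of Prox1, a homeobox factor of liver, pancreas and lymphatic vessels (-0.21, SE 0.11, adjusted p = 0.493), and Nkx6-1, a homeobox factor of pancreatic beta cells (-0.20, SE 0.08, adjusted p = 0.300). The homeobox factors Nkx2-2 and Pax4, which act beside Neurog3 in the pancreas, had differences of -0.03 (SE 0.06, adjusted p = 0.905) and -0.01 (SE 0.05, adjusted p = 0.977), and Isl1, a factor of islet cells, had -0.09 (SE 0.06, adjusted p = 0.620). These last 3 were named after their values were seen.

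Among 31 genes of granules, hormone processing and regulated secretion, 1 rose and 1 fell. Ddc, the decarboxylase that makes amines such as serotonin and dopamine, had log2 values of 8.98, 8.99 and 9.04 in DKO and 8.63, 8.60 and 8.68 in control. It rose by 0.37 (SE 0.05, adjusted p = 0.00714) and passed in every alternative (adjusted p = 0.000274 to 0.0486). Cpe, the carboxypeptidase that trims prohormones, had log2 values of 8.45, 8.53 and 8.54 in DKO and 8.86, 8.76 and 8.76 in control. It fell by 0.29 on the log2 scale (SE 0.05, adjusted p = 0.0305), a call lost without control array 1, 2 or 3 (adjusted p = 0.155, 0.104 and 0.105) and without DKO array 1 or 3 (adjusted p = 0.0808 and 0.0716). Snap25, a protein of vesicle fusion, narrowly missed the threshold (0.32, SE 0.07, adjusted p = 0.0509), with all DKO values above all control values. The secretogranins Scg2, Scg3 and Scg5, relatives or partners of the granins, had differences of 0.01, -0.07 and -0.15, with adjusted p = 0.981, 0.772 and 0.399, and the probes of Scg2 and Scg3 were below the receptor-probe percentile on all 6 arrays. Snap25 and the secretogranins were named after their values were seen.

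Among 25 genes of peptide hormones and amine synthesis, 0 rose and 2 fell. Gcg, which encodes glucagon and GLP-1, had log2 values of 8.06, 7.93 and 8.09 in DKO and 8.54, 8.43 and 8.27 in control. It fell by 0.39 on the log2 scale (SE 0.08, adjusted p = 0.0375). Penk, the enkephalin precursor, had log2 values of 8.65, 8.77 and 8.72 in DKO and 9.03, 8.98 and 9.21 in control, and fell by 0.36 (SE 0.07, adjusted p = 0.0323). All DKO values of both genes lay below all control values, but both calls were lost without single arrays. For Gcg these were DKO arrays 1 and 3 (adjusted p = 0.0738 for each) and control arrays 1 and 2 (adjusted p = 0.154 and 0.155). For Penk they were DKO arrays 1 and 3 (adjusted p = 0.0898 and 0.0948) and control arrays 1, 2 and 3 (adjusted p = 0.101, 0.0623 and 0.111). The gut hormone gene Pyy had the largest positive difference (0.43, SE 0.11) and did not pass (adjusted p = 0.0917), and was named after its values were seen.

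Of 28 peptide hormone receptor genes, 1 rose and 0 fell. Calcrl, a receptor subunit for CGRP and adrenomedullin, had log2 values of 11.09, 11.13 and 11.15 in DKO and 10.13, 10.24 and 10.25 in control. It rose 1.89-fold (0.92, SE 0.05, adjusted p = 0.000135) and passed in every alternative (adjusted p = 8.65e-07 to 0.00185). The summed linear level of the 28 receptor genes was 7629 to 8340 in DKO arrays and 6686 to 6796 in control arrays. Without Calcrl, left out after its values were seen, the sums overlapped, at 5356 to 6095 in DKO and 5522 to 5587 in control. Cckar is not among the 28, and no other receptor of the list was called lower.

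**Figure D3:**
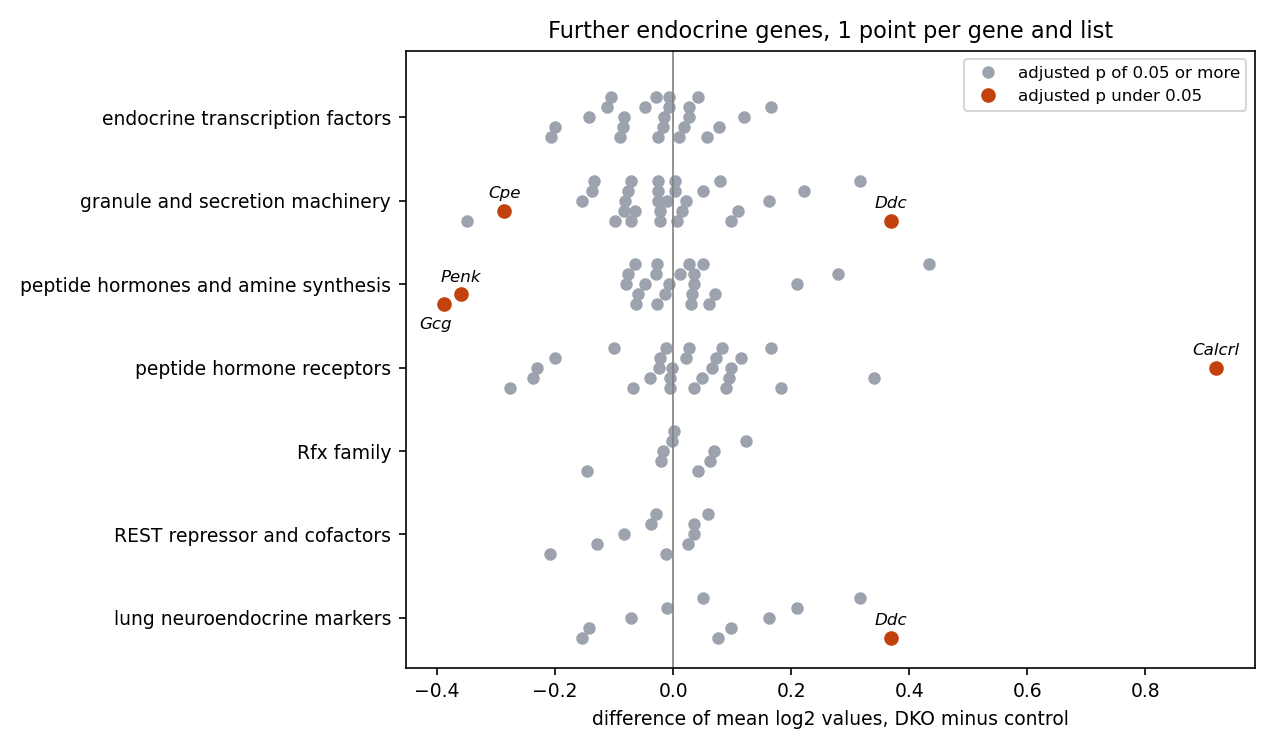
Difference of mean log2 values, DKO minus control (horizontal axis), for the genes of 7 lists (rows), 1 point per gene and list, without the 8 endocrine genes described above. Coloured and named points passed limma's adjusted p of 0.05; Calcrl, at 0.92, and Ddc rose, while Cpe, Gcg and Penk fell.

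The relatives of Rfx6 did not move with it. Of 9 other genes of the RFX family and its partners, limma called 0 over all genes and 0 had an unadjusted p under 0.05. The largest differences were -0.15 for Rfx5 (SE 0.08, adjusted p = 0.538), a regulator of MHC class II genes, and 0.12 for Rfx8 (SE 0.07, adjusted p = 0.517). Rfx3, which pairs with Rfx6 in islets, had a difference of 0.04 (SE 0.06, adjusted p = 0.871) and was named after its value was seen. REST silences endocrine and neuronal genes outside those cells and recruits Hdac1 and Hdac2 through cofactors. Of 10 measured genes of REST and its cofactors, 0 passed limma's threshold, while 1 had an unadjusted p under 0.05. Rest itself was at -0.03 (SE 0.05, adjusted p = 0.885), and the largest differences were those of the demethylase Kdm1a (-0.21, SE 0.05, adjusted p = 0.0851) and of Hmg20b (-0.13, SE 0.06, adjusted p = 0.452). Kdm1a passed with an intensity trend, with array weights and without the dimmest genes (adjusted p = 0.0178 to 0.0473).

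The endocrine label was checked against markers of lung neuroendocrine cells and of other cells that a dissected bud could hold. Of 11 measured lung neuroendocrine markers, Ddc rose and 0 fell, with a median difference of 0.08. In DKO 7 were higher and 4 lower, and 5 had values without overlap, against 18.8% of all genes. Hes6 had all DKO values below all control values and did not pass (-0.14, SE 0.05, adjusted p = 0.288). It was named after its values were seen. Grp, a peptide of these cells, had log2 values of 7.22, 7.31 and 7.23 in DKO and 7.04, 7.16 and 6.93 in control, and did not pass (0.21, SE 0.07, adjusted p = 0.178). The summed linear level of the 11 markers was 3052 to 3150 in DKO and 2887 to 2972 in control, and 8 of them were above the receptor-probe percentile on all arrays. Without Ddc, left out after its values were seen, the sums overlapped, at 2549 to 2643 in DKO and 2479 to 2577 in control. Calca, a marker of these cells, was not analysed here, and Neurog3, Neurod1 and Chgb were below the receptor-probe percentile on every array.

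Of 25 markers of gut, stomach, pancreas and liver endoderm, 1 rose and 1 fell. Alb, the liver albumin gene, had log2 values of 8.15, 8.77 and 7.96 in DKO and 7.21, 7.52 and 7.27 in control and rose by 0.96 (SE 0.18, adjusted p = 0.0294). The Alb call was lost without control array 1, 2 or 3 (adjusted p = 0.136, 0.0699 and 0.120) and without DKO array 1 (adjusted p = 0.0516). Cym, the stomach protease chymosin, fell by 0.72 on the log2 scale (SE 0.09, adjusted p = 0.00556), the direction of Cckar and not of Rfx6 and Chga. The pancreas factor Pdx1 was below the receptor-probe percentile on all 6 arrays (difference 0.17, SE 0.10, adjusted p = 0.593), a gene named after its value was seen. The summed linear level of the 25 markers was 7437 to 8268 in DKO and 6886 to 7347 in control. The sums overlapped without Gata6, an endoderm factor that did not pass (0.20, SE 0.06, adjusted p = 0.136), at 4879 to 5579 in DKO and 4709 to 5060 in control. They also overlapped without Alb, at 7154 to 7831 in DKO and 6732 to 7198 in control, and both genes were left out after their values were seen. Of 20 markers of neurons and of sympathetic and enteric neural crest, Dcx, a microtubule protein of young neurons, rose (0.38, SE 0.05, adjusted p = 0.00724) and 0 fell. Their summed level overlapped, at 5376 to 6039 in DKO and 5182 to 5703 in control. The part of liver, stomach or nerve tissue in the values of Rfx6, Chga and Cckar was not tested.

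The targeted genes and the position of Rfx6 are given beside its value. Hdac1 had log2 values of 11.20, 11.23 and 11.23 in DKO and 11.48, 11.49 and 11.52 in control, a fall of 0.28 on the log2 scale (SE 0.05, adjusted p = 0.0193). That call was lost without any 1 control array (adjusted p = 0.0883, 0.0932 and 0.112) and without DKO array 1 or 3 (adjusted p = 0.0517 and 0.0643). Hdac2 had a difference of -0.04 (SE 0.06, adjusted p = 0.845), and whether either probe lies in the deleted part was not determined here. Rfx6 and Neurog3 lie on chromosome 10, as does Hdac2, and the other measured endocrine genes lie on other chromosomes than Hdac1 and Hdac2. In gene order, 66 measured genes lie between Hdac2 and Rfx6, of which 6 were called, and 134 lie between Hdac2 and Neurog3, of which 8 were called. The second stretch contains the first and Rfx6 itself, so the counts are not separate, and the 8 include the call of Rfx6. Over the 938 measured genes of chromosome 10, 3.20% were called. The nearest measured genes to either side of Rfx6, Gprc6a (0.03, SE 0.06, adjusted p = 0.909) and 4933411G06Rik (-0.08, SE 0.06, adjusted p = 0.683), did not pass. Linked alleles near the floxed Hdac2 cannot be told apart from the loss of Hdac2 in this design.

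The immediate neighbours of Chga and Cckar likewise did not pass. Golga5 and Itpk1, to either side of Chga, had differences of -0.00084 (SE 0.05, adjusted p = 0.997) and -0.01 (SE 0.07, adjusted p = 0.971). Rbpj, the Notch effector beside Cckar, had a difference of -0.04 (SE 0.05, adjusted p = 0.806), and Tbc1d19 on its other side had 0.07 (SE 0.06, adjusted p = 0.701). Chgb, Insm1 and Neurod1 share chromosome 2, and none of them differed between the groups beyond their spread.

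Genes with the most similar pattern were found by the root mean square difference of centred log2 values over the 6 arrays, as a description. For Cckar they were Myo5c, Cldn18, Ttc6, Ces1d and Sox2, at 0.11 to 0.25 log2 units, with differences of -1.35, -1.77, -1.30, -1.18 and -1.17. For Rfx6 they were Calcrl, the pseudogene Nlrp5-ps, Stxbp5l, Dmc1 and Cxcl15, at 0.20 to 0.23 log2 units, with differences of 0.92, 1.03, 0.73, 0.66 and 1.19. For Chga they were Plet1, Armc2, Epha3, Pabpc1l2b and Arntl2, at 0.04 to 0.06 log2 units, with differences of 0.40, 0.33, 0.42, 0.32 and 0.36. The 3 sets share no gene, and all genes share the same 6 arrays and groups.

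**Figure D4:**
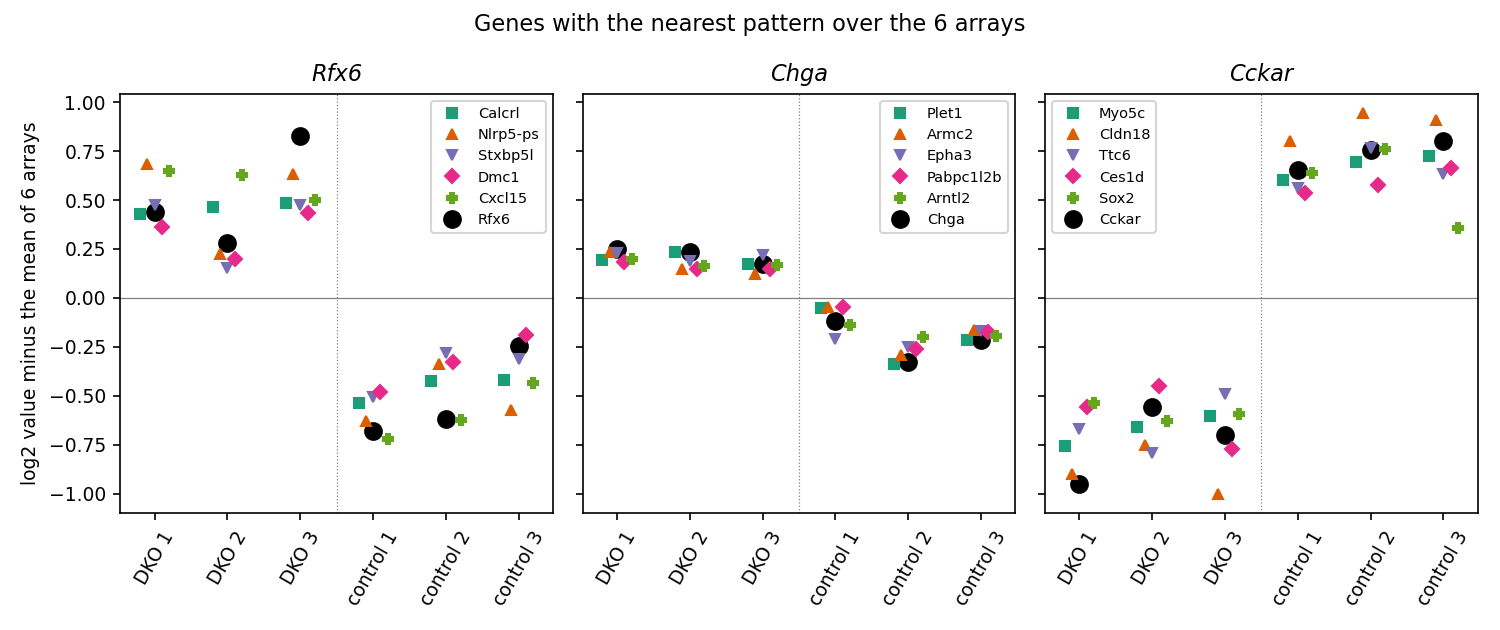
Log2 value minus the mean of the 6 arrays (vertical axis) on each DKO and control array (horizontal axis) for Rfx6, Chga and Cckar (black circles) and the 5 genes nearest to each in pattern (coloured symbols). Rfx6 and Chga and their sets are higher in the 3 DKO arrays, and Cckar and its set are lower there.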

How the data were processed

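RNA of dissected E11.5 lung buds was hybridised to Affymetrix MoGene 1.1 ST arrays (100 ng of total RNA per sample), per the labels. The authors deposited 1 log2 value per probe and array, made with RMA, which stands with oligo and limma, and no versions, in the submitters' processing notes. RMA corrects background, equalises the arrays' distributions and summarises probes, so a change common to all genes is removed. The log base is not stated in the table. Base 2 was taken from RMA and from the range of 3.42 to 14.27. The array medians were 7.87 to 7.89, and the number of arrays limits the precision.

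Of 35556 probes, 21789 had 1 gene, 1621 several and 12146 were unnamed here. Symbols were checked through Entrez identifiers against RefSeq (GRCm38.p6), which matched 19856 of 19938 genes and changed 0 symbols. Where a gene had several probes, the brightest on average was used. Differences are DKO minus control from lmFit and eBayes of limma 3.58.1, two-sided, run in R 4.3.3, with Benjamini-Hochberg adjustment over 19938 genes and a threshold of 0.05. The fit was tested on simulated data. Replicate numbers were checked for pairing, and the groups were fitted without a block. The members and lists were chosen with earlier results of these data known. Outside the 8 genes, the text names Hdac1, Hdac2, Rest and Grp, up to 6 called genes of each list or else its 2 largest differences, and the 5 nearest patterns. Flanking genes are named for their position. Other genes named after their values were seen are marked as such. Summed levels add values taken off the log scale. Alternatives were a replicate block, an intensity trend, array weights, a second quantile normalization, median centring, dropping the dimmest 30% or 50% of genes, the mean of a gene's probes, and leaving out each array.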

Additional observations from a re-analysis of the deposited data

How the results depend on the processing

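The differences of the 7 endocrine genes, and those relative to epithelium, moved by less than 1 SD between replicates under median centring, a second quantile normalization, the mean of probes and every array left out. The number of genes without overlap was 3 to 4 when single arrays were left out. Without the dimmest 30% of genes, Neurog3, Neurod1 and Chgb dropped out, and without the dimmest 50% Insm1 and Chga did too. The 481 calls over all genes became 725 with an intensity trend and 2003 with array weights, and 197 to 811 without single arrays. With array weights, 19 of the further endocrine genes, 5 lung neuroendocrine markers and 2 neural markers were called. Without single arrays the further endocrine genes gave 2 to 11 calls, lung neuroendocrine markers 1 to 3, epithelium markers 7 to 13 and gut and liver markers 1 to 2. The gut and liver count was 1 without the dimmest 50%, where 6 of its genes were left. REST and its cofactors gave 1 call with an intensity trend, array weights and either filter on dim genes. Lung neuroendocrine markers gave 2 with an intensity trend, a second quantile normalization, median centring and without the dimmest 30%. The cause of these moves was not tested, apart from fewer arrays or genes. Deviations of same-numbered arrays correlated at -0.06, 0.05 and 0.16, and those of differently numbered arrays at -0.19 to 0.14. With 3 arrays per group, these values cannot decide whether the replicate numbers pair the samples. With the replicate number as a block, 406 genes and 4 further endocrine genes were called, and the calls of Cpe, Gcg, Penk and Hdac1 were lost (adjusted p = 0.0763, 0.0591, 0.0505 and 0.0507), while the gut and liver markers gave 3. Probes below the receptor-probe percentile limit what can be said of Neurog3, Neurod1 and Chgb.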

Other observations

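Beyond the genes that passed, several genes of the endocrine and cell type marker lists had DKO values wholly above or below the controls without passing. Gal, the galanin precursor, had log2 values of 9.57, 9.52 and 9.68 in DKO and 9.47, 9.20 and 9.25 in control (difference 0.28, SE 0.08, adjusted p = 0.130). The neuropeptide Y receptor Npy1r had a difference of 0.34 (SE 0.09, adjusted p = 0.0943), and was above the receptor-probe percentile on 2 of 6 arrays. The calcitonin receptor Calcr had log2 values of 7.22, 7.40 and 7.43 in DKO and 7.59, 7.60 and 7.70 in control (difference -0.28, SE 0.07, adjusted p = 0.0880), opposite to its relative Calcrl. Vipr2, a receptor for vasoactive intestinal peptide, was at -0.23 (SE 0.06, adjusted p = 0.0873). The synaptic vesicle protein Syp was at 0.16 (SE 0.07, adjusted p = 0.332) and Ret, a receptor of enteric neural crest, at -0.28 (SE 0.08, adjusted p = 0.130). These genes were chosen after their values were seen, and 18.8% of all genes had groups without overlap.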
